A study of Homo sapiens with 12 samples.

Results

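The 30 genes described here make cholesterol or control its supply: 8 enzymes from acetyl-CoA to the isoprenoids, 11 enzymes from squalene onwards, 4 genes of the SREBP2 switch, 4 genes of sterol and lipid handling, and 3 genes of the LXR arm. They were taken from a fixed list of symbols, each matched to its Ensembl identifier, and all 30 were found among the 61552 genes of the counts table. The cells were cultures of human neuroblastoma lines, all with the genotype label WT, kept overnight as controls or with ML210, a covalent inhibitor of the lipid peroxide reductase GPX4 that induces ferroptosis. No dose is given in the labels. The 4 groups were controls and ML210 cultures labelled SK-N-AS, and likewise controls and ML210 cultures labelled SK-N-BE(2), with 3 libraries each, 1 from each of 3 labelled batches. The design sets out to compare the ML210 response of a MYCN-amplified line, SK-N-BE(2), with that of a line without the amplification, SK-N-AS. Each status is represented by 1 line, so the status and the line itself cannot be told apart. Apart from the batch label, no label says whether the 3 libraries of a group are separate cultures. The p-values therefore cover the spread between these libraries, which may be technical.

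Cholesterol is built from acetyl-CoA through mevalonate, the isoprenoid farnesyl diphosphate, squalene and lanosterol. The genes of this route are switched on together by the transcription factor SREBP2, which is held in the endoplasmic reticulum by SCAP and the INSIG proteins while sterols are plentiful and is released and cleaved when they fall. LXR receptors sense oxidised sterols and promote disposal of cholesterol. The pathway meets ferroptosis at several points: mevalonate feeds ubiquinone and the isoprenoid used to make selenocysteine tRNA, squalene can act as a lipid antioxidant, and 7-dehydrocholesterol, the substrate of DHCR7, traps lipid radicals.

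Library totals lay between 54047293 and 83481963 counted reads, and the 30 genes took between 0.2292% and 0.3413% of them. The level of MYCN went against the line labels: the mean of the SK-N-AS controls was 3558 CPM (counts per library size, with library sizes scaled by TMM) and that of the SK-N-BE(2) controls 0.166 CPM. Groups are therefore named by their labels throughout, and no direction between lines can be assigned to a line with certainty. Sympathoadrenal markers summed to between 2510 and 2850 CPM in the libraries labelled SK-N-AS and, under the label SK-N-BE(2), to between 978 and 1200 CPM, with none of the 9 at 0. Mesenchymal markers ran the other way, with sums from 272 to 383 CPM under the former label and from 1870 to 2380 CPM under the latter. PTPRC, a leukocyte surface phosphatase with a mean of 289.9 CPM in the controls labelled SK-N-BE(2), was at 0 in batch 1 labelled SK-N-AS but between 1.115 and 2.12 CPM in the 4 libraries of batches 2 and 3 with that label. The mesenchymal markers PRRX1 and COL1A1 split likewise: at most 0.026 and 4.331 CPM in batch 1, and 1.174 to 1.538 and 28.32 to 55.65 CPM in those 4 libraries. VIM, FN1 and SNAI2 did not, and the source of the traces was not tested. GPX4 itself had means of 269.5, 248.4, 246.8 and 234.3 CPM in the 4 groups in the order above and did not pass the test for ML210 under either label.

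In the libraries labelled SK-N-BE(2), genes of sterol synthesis were lower with ML210. SQLE, the squalene epoxidase that is a rate-limiting step after mevalonate, fell by 21.6%. DHCR7, the reductase that turns 7-dehydrocholesterol into cholesterol, fell by 20.9%, and FDFT1, the squalene synthase that commits farnesyl diphosphate to sterols, fell by 18.6%. The other 27 genes did not pass the test (edgeR quasi-likelihood test, Benjamini-Hochberg adjusted p under 0.05 over all 20304 genes tested), and none was higher. Against these 3 of 30, 0.557% of all genes tested were called lower and 1.37% were called in either direction. Of the 30 estimates, 26 were below 0, as were 48.7% of those of all genes tested, and the median log2 difference was -0.16 against 0.00 for all genes.

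**Figure D1:**
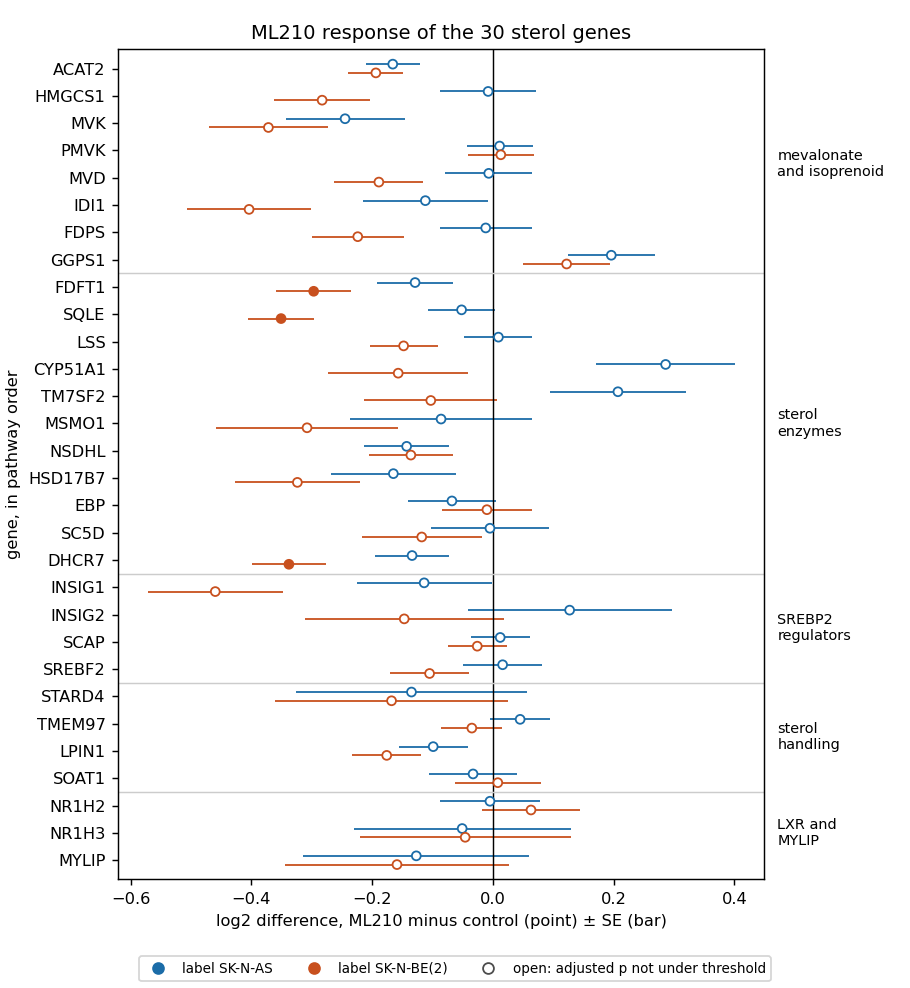
Log2 difference between ML210 and control libraries (x axis, points with bars of 1 standard error) for the 30 genes in pathway order, for the labels SK-N-AS and SK-N-BE(2), 3 libraries a group. Filled points are the 3 genes called, SQLE, DHCR7 and FDFT1, all labelled SK-N-BE(2), where 26 of the 30 points lie below 0.

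The batch label joins each ML210 library to a control library, and a fit with batch as a block within each line label called 12 of the 30 genes lower and none higher. In that fit 3.4% of all genes tested were called lower and 6.83% in either direction. The 12 were ACAT2, HMGCS1, MVK, IDI1, FDPS, FDFT1, SQLE, MSMO1, HSD17B7, DHCR7, INSIG1 and LPIN1. DESeq2 without the block called 8 lower, against 1.78% of all genes. The count rested on the ML210 library of batch 2: without it the main test called 0 of 30 (with all libraries, 13 of 30 were lower at an unadjusted p under 0.05, against 6.33% of all genes), and the blocked fit without batch 2 called 2, DHCR7 and INSIG1. Without the ML210 library of batch 3 the main test called 8, and without the control library of batch 1 it called 1. With only the libraries labelled SK-N-BE(2) in the fit, the main test called 0. Without batches 2 and 3 of the other label, the libraries that held traces of PTPRC, it also called 0.

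SQLE (GRCh38, chromosome 8, 124998497 to 125022283) was at 288.2, 275.5 and 283.3 CPM in the control libraries of batches 1, 2 and 3 labelled SK-N-BE(2) and at 216.3, 209.9 and 237.9 CPM with ML210. All 3 treated libraries lay below all 3 controls, and the fall was least in batch 3. The log2 difference was -0.35 ± 0.06 (SE, adjusted p = 0.0111, and 0.00152 with the block). DHCR7 (chromosome 11, 71428193 to 71452868) was at 169.4, 161.7 and 164.1 CPM in these controls and at 133.2, 128.4 and 130.2 CPM with ML210. Its 3 batches gave nearly the same log2 difference, -0.35, -0.33 and -0.33 (estimate -0.34 ± 0.06, adjusted p = 0.0188). FDFT1 (chromosome 8, 11795573 to 11839309) was at 342.7, 349.4 and 309.7 CPM in controls and at 257.9, 276.3 and 281.4 CPM with ML210. The groups did not overlap, but the batch 3 pair differed by only -0.14 against -0.41 and -0.34 in the other batches (estimate -0.30 ± 0.06, adjusted p = 0.0332). FDFT1 was the least stable of the 3: its adjusted p rose to 0.137 when single libraries were left out, and 8 of 12 such fits lost the call.

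**Figure D2:**
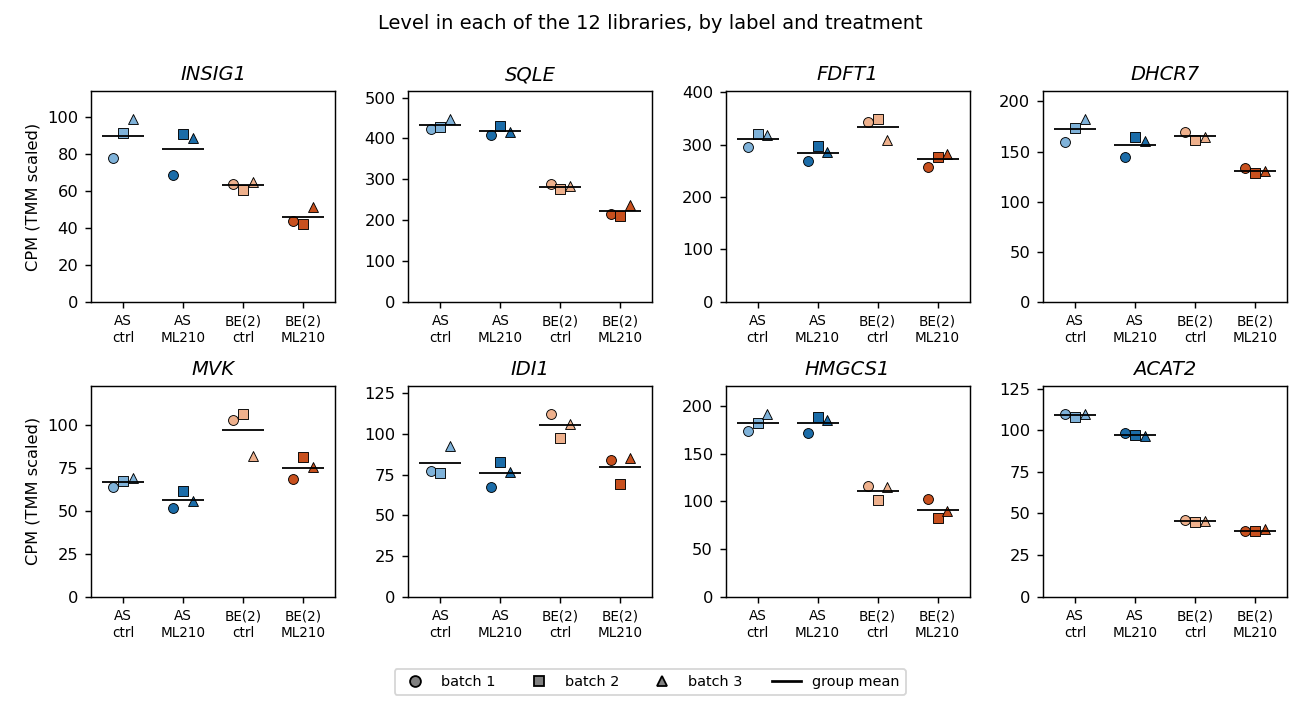
CPM (y axis, from 0) of 8 of the genes in each of the 12 libraries, by label and treatment, with symbols for the batch and a line at the group mean. In the libraries labelled SK-N-BE(2), the ML210 points of SQLE, FDFT1, DHCR7, INSIG1, MVK, IDI1 and ACAT2 lie below every control point, and those of HMGCS1 overlap by 1 library.

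Among the enzymes before squalene, none of 8 passed the main test labelled SK-N-BE(2), and 5 fell in the blocked fit. ACAT2, which joins 2 acetyl-CoA units, had the narrowest spread: 46.22, 44.93 and 45.25 CPM in controls and 39.41, 39.41 and 40.37 CPM with ML210. Its log2 difference was -0.19 ± 0.05 (adjusted p = 0.0531, and 0.0278 with the block). More than 1 base in 2 of its annotated exons (52.3%) is shared with genes of the opposite strand, TCP1 and SOD2 among them, and the strand setting of the counting is not given in the sources used here, so its level is uncertain. HMGCS1, the HMG-CoA synthase, was at 115.9, 101.8 and 115.4 CPM in controls and 102.2, 82.09 and 89.46 CPM with ML210. Its groups overlapped, yet each batch was lower with ML210, by log2 values of -0.18, -0.31 and -0.37 (adjusted p = 0.102, and 0.00565 with the block).

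MVK, the mevalonate kinase, ran from 82.19 to 106.8 CPM in these controls and from 68.43 to 81.24 CPM with ML210. Its batches disagreed in size, from a log2 difference of -0.12 in batch 3 to -0.59 in batch 1 (adjusted p = 0.0835, and 0.0164 with the block). IDI1, which isomerises the isoprenoid building block, had the most negative estimate of these 8, -0.40 ± 0.10 (adjusted p = 0.0741, and 0.00519 with the block). Its controls were at 112.4, 97.15 and 105.9 CPM and its ML210 libraries at 84.06, 69.24 and 85.07 CPM, again without overlap. FDPS, the farnesyl diphosphate synthase, had means of 129.0 ± 9.49 and 110.4 ± 3.43 CPM (SD, n = 3; edgeR adjusted p = 0.184, and 0.0137 with the block). Its counts are uncertain because GENCODE lists 8 pseudogenes named after it. PMVK and MVD, the next kinase and the decarboxylase, had estimates of 0.01 and -0.19 and passed neither test. GGPS1, which lengthens farnesyl to geranylgeranyl diphosphate and so feeds protein prenylation instead of sterols, was the only one of the 30 with all treated libraries above all controls, at 28.98, 25.99 and 27.4 against 24.63, 25.22 and 25.82 CPM, a pattern shared by 9.22% of all genes tested. It passed neither test (estimate 0.12 ± 0.07, adjusted p = 0.518), and 41.0% of its exon bases are shared with the neighbouring genes TBCE and ARID4B.

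Of the 11 enzymes from squalene synthase onwards, all 11 estimates labelled SK-N-BE(2) were below 0. Beside SQLE, DHCR7 and FDFT1, the blocked fit called MSMO1, a C4 methyl sterol oxidase, and HSD17B7, the ketoreductase of the same demethylation. MSMO1 was at 115.8, 98.23 and 111.3 CPM in controls and 98.59, 73.39 and 90.74 CPM with ML210, so that its groups overlapped by 1 library while every batch was lower (adjusted p = 0.418, and 0.0324 with the block). HSD17B7 was at 21.02, 21.78 and 21.56 CPM and at 16.46, 15.5 and 19.43 CPM (adjusted p = 0.158, and 0.0426 with the block). GENCODE lists 2 HSD17B7 pseudogenes, so its value is uncertain. LSS, the cyclase that makes lanosterol, had means of 169.3 ± 4.23 and 152.8 ± 7.85 CPM (SD, n = 3) without overlap, but passed neither edgeR test (adjusted p = 0.242, and 0.0684 with the block).

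The remaining sterol enzymes passed no test of ML210 under either label. For the label SK-N-BE(2), EBP, the sterol isomerase, had the estimate closest to 0, -0.01, and NSDHL, SC5D, TM7SF2 and CYP51A1 lay between -0.10 and -0.16. Of the exon bases of CYP51A1, the lanosterol demethylase, 83.2% are shared with other annotated genes, so its level is uncertain. The summed level of the 19 enzymes was 1876, 1831 and 1799 CPM in the controls labelled SK-N-BE(2) and 1527, 1489 and 1576 CPM with ML210. All treated sums lay below all control sums.

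None of the 4 regulators passed the main test labelled SK-N-BE(2), and all 4 estimates were below 0. INSIG1, which helps to hold SREBP2 in the endoplasmic reticulum, had the most negative estimate of all 30 genes labelled SK-N-BE(2). It was at 63.65, 60.49 and 64.65 CPM in controls and at 43.92, 42.25 and 51.03 CPM with ML210, with every treated library below every control. The log2 difference was -0.46 ± 0.11, which did not pass the main test (adjusted p = 0.0656) and passed with the block (adjusted p = 0.000743) and in DESeq2 (adjusted p = 0.0058). Its relative INSIG2, which is not known as an SREBP target, was at 15.37, 16.29 and 15.78 CPM and at 15.87, 13.78 and 13.21 CPM. These groups overlapped, and INSIG2 passed no test (estimate -0.15 ± 0.17, adjusted p = 0.805, and 0.509 with the block). The estimates of INSIG1 and INSIG2 were not tested against each other.

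SREBF2, which encodes SREBP2, had an estimate of -0.11 ± 0.07 (adjusted p = 0.557), and its libraries overlapped, from 157.0 to 176.2 CPM in controls and from 144.0 to 167.5 CPM with ML210. SCAP, the sterol-sensing escort of SREBP2, was at 82.47, 83.08 and 83.14 CPM and at 80.73, 81.8 and 81.76 CPM. These do not overlap, but the estimate was -0.03 and the adjusted p 0.911. Across the 30 genes, 11 were lower without overlap of the 3 and 3 libraries, against 8.18% of all genes tested: ACAT2, MVK, IDI1, FDPS, FDFT1, SQLE, LSS, HSD17B7, DHCR7, INSIG1 and SCAP. In all 3 same-batch pairs 18 of the 30 were lower, against 20.1% of all genes.

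Among the handling and LXR genes, LPIN1, a phosphatidate phosphatase and known SREBP target, was called by the blocked fit, at 86.28, 76.62 and 87.95 CPM in controls and 72.74, 72.25 and 77.02 CPM with ML210 (adjusted p = 0.163, and 0.0488 with the block). These groups overlapped in 1 library. STARD4, a cytosolic sterol carrier, TMEM97, a binding partner of lysosomal sterol export, and SOAT1, which esterifies cholesterol for storage, had estimates of -0.17, -0.04 and 0.01 and passed no test. The LXR genes NR1H2 and NR1H3 had estimates of 0.06 and -0.05. NR1H2 was at 85.38, 91.38 and 75.78 CPM in controls and 85.23, 95.36 and 83.22 CPM with ML210, and NR1H3 was at 7.351, 7.283 and 6.141 CPM and at 6.317, 7.952 and 5.861 CPM, so both overlapped. MYLIP, the LXR-induced ligase that degrades lipoprotein receptors, had an estimate of -0.16 and passed no test.

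Other readings also differed between these libraries. PHOX2A, a sympathoadrenal transcription factor, was the 1 of 9 sympathoadrenal markers called there, with a log2 difference of -0.69 and an adjusted p of 0.017. With the block, TH, PRRX1, KRT8 and KDR were also lower (adjusted p = 0.0476, 0.00225, 0.00176 and 0.0305). The 7 mesenchymal markers summed to between 2220 and 2380 CPM in the controls and between 1870 and 2220 CPM with ML210. The 6 blood markers, of which 3 were at 0, summed to between 264 and 330 CPM in the controls and between 163 and 289 CPM with ML210. Only PTPRC among these 6 had a group mean of at least 1 CPM, so this sum is nearly its level alone. Mitochondrial transcripts took 2.32%, 2.11% and 2.46% of control reads, and 2.52%, 2.94% and 2.17% in ML210 libraries. Their part in the result was not tested. In bulk RNA, fewer cells of a type and less RNA per cell cannot be told apart.

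**Figure D3:**
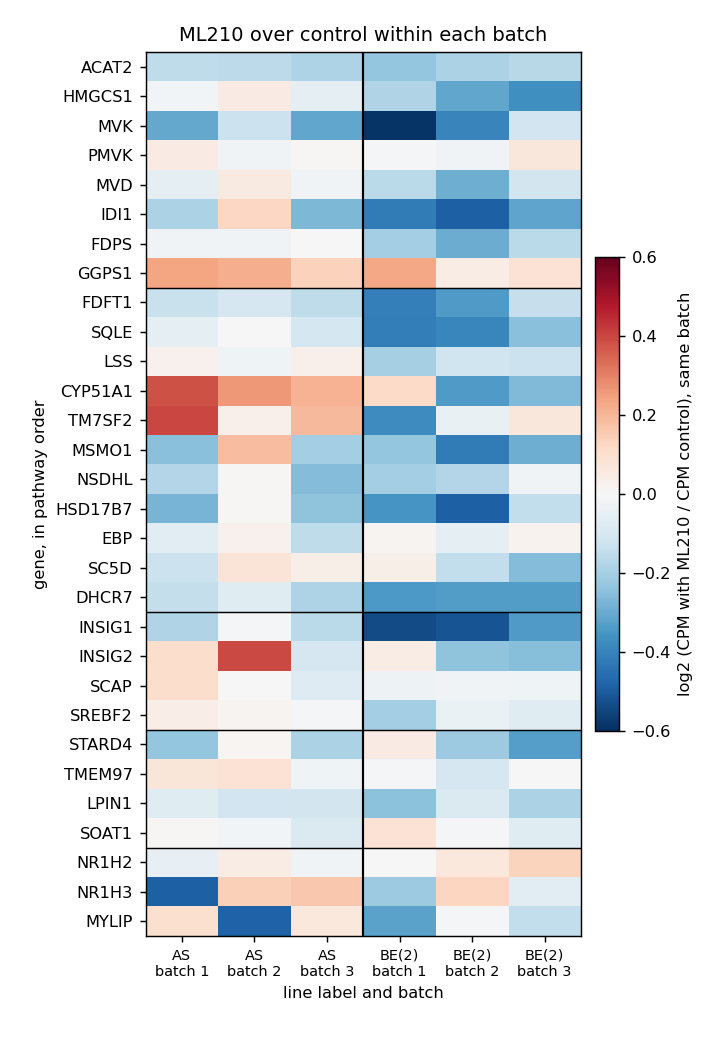
Log2 ratio of CPM with ML210 to CPM in the control of the same batch (colour, blue lower and red higher) for the 30 genes (y axis, pathway order) in 3 batches of each label (x axis). In the 3 columns labelled SK-N-BE(2), 18 genes are blue throughout, DHCR7 evenly so at -0.35, -0.33 and -0.33, and GGPS1 is red in all 6 columns.

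The stretches just before the transcription starts are printed for the genes that were lower in the blocked fit, because SREBP2 works at promoters together with the factor NF-Y, which reads CCAAT, and Sp1, which reads GGGCGG. Shown are those with a RefSeq promoter entry (GRCh38.p14) whose bases lie before the outermost GENCODE 29 start and hold a CCAAT, with INSIG2 for comparison with INSIG1. Each runs 5′ to 3′ along the gene's strand. Capitals mark CCAAT and GGGCGG on either strand, so that ATTGG and CCGCCC are the same boxes read from the other strand, and overlapping boxes run together. INSIG1 is at chr7:155297628-155297775 (plus strand), INSIG2 at chr2:118088302-118088451 (plus), HMGCS1 at chr5:43313513-43313662 (minus), IDI1 at chr10:1049171-1049320 (minus, with a further RefSeq start upstream of it), FDPS at chr1:155308616-155308747 (plus), MSMO1 at chr4:165327473-165327622 (plus) and HSD17B7 at chr1:162790552-162790701 (plus).
INSIG1: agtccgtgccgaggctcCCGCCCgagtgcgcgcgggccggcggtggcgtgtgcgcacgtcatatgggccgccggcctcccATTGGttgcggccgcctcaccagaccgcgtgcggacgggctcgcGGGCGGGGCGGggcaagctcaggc
INSIG2: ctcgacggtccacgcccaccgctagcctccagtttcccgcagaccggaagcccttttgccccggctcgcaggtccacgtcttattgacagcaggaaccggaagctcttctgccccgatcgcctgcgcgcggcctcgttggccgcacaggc
HMGCS1: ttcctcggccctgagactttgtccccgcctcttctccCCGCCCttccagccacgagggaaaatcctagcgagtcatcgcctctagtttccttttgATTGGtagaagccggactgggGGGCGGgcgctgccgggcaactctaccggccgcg
IDI1: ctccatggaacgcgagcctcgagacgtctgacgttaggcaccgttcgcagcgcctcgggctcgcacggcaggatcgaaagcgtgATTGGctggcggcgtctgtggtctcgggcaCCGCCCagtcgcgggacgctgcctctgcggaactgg
FDPS: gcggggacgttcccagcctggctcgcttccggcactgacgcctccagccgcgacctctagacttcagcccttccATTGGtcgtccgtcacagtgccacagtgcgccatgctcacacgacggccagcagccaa
MSMO1: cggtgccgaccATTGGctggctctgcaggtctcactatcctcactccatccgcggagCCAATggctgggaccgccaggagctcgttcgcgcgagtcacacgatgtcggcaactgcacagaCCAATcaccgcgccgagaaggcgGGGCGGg
HSD17B7: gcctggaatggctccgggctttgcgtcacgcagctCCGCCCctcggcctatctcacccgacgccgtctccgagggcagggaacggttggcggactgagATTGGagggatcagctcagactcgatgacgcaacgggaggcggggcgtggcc

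INSIG1 held 1 CCAAT and 3 GGGCGG in this stretch and INSIG2 neither, although both RefSeq windows of INSIG2 held a GGGCGG. MSMO1 held 3 CCAAT boxes, and HMGCS1, IDI1, FDPS and HSD17B7 held 1 each. The other genes printed were chosen for holding a CCAAT. LPIN1 held neither box before its outermost start, but GGGCGG before RefSeq starts further into the gene. In the full RefSeq windows, from 250 bases before to 50 after each start, 27 of the 30 genes had an entry, and 21 of these held CCAAT on either strand (77.8%). ACAT2, FDFT1 and SQLE had no entry, so FDFT1 and SQLE, both called in the main test, were not searched. DHCR7, also called there, was searched, but its window lies inside its GENCODE span and is not printed. Among tested genes with an entry the share was 42.2%, and among all promoter windows of the same length 34.6%. GGGCGG was in 26 of 27, against 73.9% of tested genes. CACGTG, an E-box, was in 4 of 27 (14.8%) against 12.0% of tested genes and 7.26% of all windows. These are matches of letters and not sites, and genes with several entries had more than 1 window searched.

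The letters TCACNCCAC, the core of the sterol regulatory element, were found in the window of 1 of the 27 genes, SREBF2, against 1.39% of tested genes and 1.13% of all windows. The stretch is shown because SREBF2 is known to be a target of its own product. It is at chr22:41832912-41833040 on the plus strand, upstream of the annotated start at 41833079, with the match in capitals.
SREBF2: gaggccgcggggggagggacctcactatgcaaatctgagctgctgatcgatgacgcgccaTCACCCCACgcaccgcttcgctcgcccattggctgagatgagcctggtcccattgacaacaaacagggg

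In the libraries labelled SK-N-AS, none of the 30 genes passed the ML210 test, in edgeR with or without the block or in DESeq2. In edgeR, 5 had an unadjusted p under 0.05, of which 3 were lower, against 4.19% of all genes lower at that threshold. Of all genes tested, 0.0296% passed the adjusted threshold, 0.187% with the block and 0.256% in DESeq2. The median log2 difference of the 30 was -0.04 against -0.01 for all genes, with 21 estimates below 0, as were 52% of those of all genes. SQLE was at 423.0, 428.8 and 448.4 CPM in controls and 407.9, 430.1 and 416.5 CPM with ML210, which overlap (log2 -0.05 ± 0.05, adjusted p = 0.926). INSIG1 was at 77.86, 91.35 and 98.97 CPM and at 68.64, 90.48 and 88.55 CPM, with batch 1 lowest in both groups (log2 -0.11 ± 0.11, adjusted p = 0.913).

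ACAT2 gave the smallest unadjusted p under this label, 0.00265, with 109.5, 108.2 and 110.0 CPM in controls and 98.37, 97.13 and 96.64 CPM with ML210 (log2 -0.17 ± 0.05, adjusted p = 0.462). MVK and LPIN1 were the other genes lower without overlap, 3 of 30 against 8.86% of all genes. Those higher without overlap were GGPS1, CYP51A1 and TM7SF2, 3 of 30 against 6.01% of all genes. TM7SF2, a sterol reductase, was at 12.86, 15.41 and 14.31 CPM in controls and at 17, 15.76 and 16.38 CPM with ML210, and CYP51A1 was at 12.81, 13.65 and 12.04 CPM and at 16.69, 16.35 and 13.93 CPM. Neither passed the test (adjusted p = 0.785 and 0.671). The sum of the 19 enzymes was 2122, 2197 and 2294 CPM in controls and 2000, 2188 and 2134 CPM with ML210, with overlap.

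The mean of both ML210 responses called 4 genes lower and none higher, against 0.532% of all genes called lower and 1.23% in either direction. They were ACAT2 (log2 -0.18 ± 0.03, adjusted p = 0.0189), DHCR7 (-0.24 ± 0.04, adjusted p = 0.0217), SQLE (-0.20 ± 0.04, adjusted p = 0.0261) and FDFT1 (-0.21 ± 0.04, adjusted p = 0.0341). ACAT2 was lower by a similar amount under both labels, whereas SQLE was at -0.05 and -0.35. With the block 10 were lower, against 3.42% of all genes. Single libraries decided this count: 0 genes were called without the SK-N-AS control of batch 2 or 3, the SK-N-AS ML210 library of batch 3, the SK-N-BE(2) control of batch 1 or the SK-N-BE(2) ML210 library of batch 2. It was 1 without the SK-N-AS ML210 library of batch 2 or the SK-N-BE(2) ML210 library of batch 1, 2 without the SK-N-AS ML210 library of batch 1 or the SK-N-BE(2) control of batch 2, and 9 without the SK-N-BE(2) ML210 library of batch 3.

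Whether the 2 labels differed in their response was tested as the difference of the responses, SK-N-BE(2) minus SK-N-AS. None of the 30 genes passed, in edgeR with or without the block or in DESeq2, against 0.00493%, 0.419% and 0.222% of all genes. At an unadjusted p under 0.05 there were 5 of 30, all with the lower response labelled SK-N-BE(2): SQLE, CYP51A1, HMGCS1, DHCR7 and INSIG1. Of all genes 2.66% were lower at that threshold. SQLE had a difference of -0.30 ± 0.08 (adjusted p = 0.499, and 0.0828 with the block) and INSIG1 one of -0.35 ± 0.16 (adjusted p = 0.694, and 0.0821 with the block). CYP51A1 had the most negative difference, -0.44 ± 0.16 (adjusted p = 0.621), from estimates of 0.29 labelled SK-N-AS and -0.16 labelled SK-N-BE(2). Without the SK-N-BE(2) ML210 library of batch 3, SQLE alone was called. A response of the genes that is particular to 1 label was thus not shown.

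Between the controls of the labels, the largest differences among these genes, down to a log2 value of -2.09, exceeded every estimate for ML210, of which -0.46 was the most negative. Of the 30, 13 were lower and 8 higher in controls labelled SK-N-BE(2), and 9 were not called. Since 69.2% of all genes tested were called (33.9% higher and 35.2% lower), the share is that of any gene, and what follows describes which genes differed. Scaling by library totals instead of TMM moved the median of all genes from -0.01 to 0.24 and gave 11 lower and 16 higher, with PMVK and INSIG1 no longer called. The directions of the other called genes were the same under both scalings.

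TMEM97 had the largest difference. Its SK-N-AS controls were at 186.2, 193.1 and 201.8 CPM and its SK-N-BE(2) controls at 45.71, 45.33 and 45.12 CPM, a log2 difference of -2.09 ± 0.05 (adjusted p = 1.06e-12). GENCODE lists 2 TMEM97 pseudogenes, and 11.9% of its exon bases are shared with IFT20 on the opposite strand, so its level is uncertain. SREBF2 was next, at 598.5, 657.0 and 637.7 CPM against 166.1, 157.0 and 176.2 CPM, or 0.264 times the level (log2 -1.92 ± 0.07, adjusted p = 2.4e-11). Neither gene's groups came near overlap. The late sterol enzymes SC5D, the lathosterol desaturase (log2 -1.89, adjusted p = 1.6e-09), and EBP (-1.53, adjusted p = 4.77e-10) and the early MVD (-1.51, adjusted p = 4.44e-10) were lower by similar amounts. ACAT2 was at 0.416 times the level (log2 -1.26), with LPIN1 at -0.99, STARD4 at -0.96, HMGCS1 at -0.72, SQLE at -0.62, INSIG1 at -0.51, SCAP at -0.36 and PMVK at -0.35 also lower.

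TM7SF2 had the largest positive difference, at 12.86, 15.41 and 14.31 CPM in the SK-N-AS controls and 29.76, 29.74 and 31.1 CPM in the SK-N-BE(2) controls (log2 1.09 ± 0.11, adjusted p = 9.41e-07). The INSIG relatives differed in opposite directions: INSIG2 was higher, at 15.37, 16.29 and 15.78 against 6.608, 7.785 and 10.59 CPM (log2 0.93 ± 0.17, adjusted p = 0.000216), and INSIG1 lower (-0.51 ± 0.11, adjusted p = 0.00126, and 0.0548 under library totals). Both LXR genes were higher, NR1H3 at 7.351, 7.283 and 6.141 against 4.175, 3.988 and 3.223 CPM (log2 0.87, adjusted p = 0.000613) and NR1H2 by 0.63 (adjusted p = 1.04e-05). SOAT1 (0.68), MVK (0.54), IDI1 (0.36) and GGPS1 (0.35) were higher too.

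The 9 genes without a call were FDPS, FDFT1, LSS, CYP51A1, MSMO1, NSDHL, HSD17B7, DHCR7 and MYLIP, 7 of them among the 11 sterol enzymes. Of these, FDPS (log2 0.18, adjusted p = 0.0545) and MYLIP (0.45, adjusted p = 0.0512) passed with batch as a block (adjusted p = 0.0139 and 0.0423) and in DESeq2 (0.0314 and 0.0146). Either of these fits thus called 10 of the 30 genes higher, against 33.8% of all genes with the block and 35.2% in DESeq2. LSS was almost level, at 170.0 ± 8.92 and 169.3 ± 4.23 CPM (SD, n = 3). SREBF2 at 0.264 times the level stood beside estimates of -0.01 for LSS, -0.06 for DHCR7 and 0.10 for FDFT1, all known SREBP2 targets, on this scaling. Other enzymes of the route were lower with it, such as SC5D, MVD, HMGCS1 and SQLE. Of the 19 enzymes, 7 were called lower, 4 higher and 8 not, against 35.2% of all genes lower and 33.9% higher. Whether the enzymes follow SREBF2 was not tested. Under library totals LSS, DHCR7 and FDFT1 were called higher, at 0.24, 0.19 and 0.35.

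**Figure D4:**
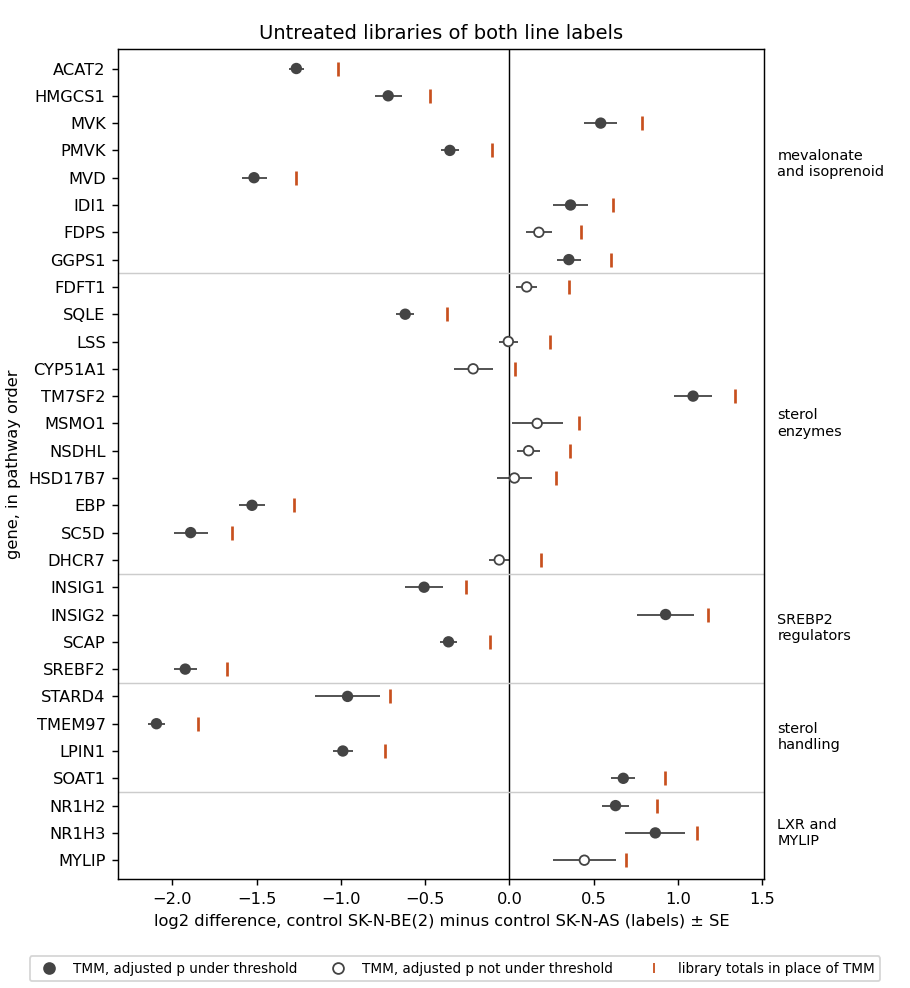
Log2 difference between controls labelled SK-N-BE(2) and controls labelled SK-N-AS (x axis) for the 30 genes in pathway order, 3 libraries a group, as points with bars of 1 standard error (filled where called) and with a tick for the estimate under library totals. TMEM97, SREBF2 and SC5D lie furthest to the left, at -2.09, -1.92 and -1.89, and TM7SF2 furthest to the right at 1.09.

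Levels between genes were compared per kilobase of annotated exon. In the controls labelled SK-N-AS, SQLE was highest at 101.0 ± 3.08 CPM per kilobase (SD, n = 3), followed by SREBF2 at 83.5 ± 3.95, TMEM97 at 63.8 ± 2.58 and FDFT1 at 59.8 ± 2.55, the last pair within their spread of each other. DHCR7 at 41.4 ± 2.75 and HMGCS1 at 38.9 ± 1.93 also lay within their spread. In the controls labelled SK-N-BE(2), SQLE at 65.6 ± 1.48 and FDFT1 at 64.2 ± 4.09 could not be separated, and DHCR7, NSDHL and MSMO1 followed at 39.7, 39.5 and 37.5, also within their spread. SREBF2 was at 22 ± 1.27, in twelfth place of the 30. NR1H3 was lowest under both labels, at 0.837 ± 0.11 and 1.53 ± 0.15 CPM per kilobase.

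Of 13 genes that process or retain SREBP, 2 were higher with ML210 in the libraries labelled SK-N-BE(2), VCP (log2 0.40, adjusted p = 0.0475) and UFD1 (0.59, adjusted p = 0.0475), where 1.37% of all genes were called in either direction. With the block there were 3, with UBXN8 (0.39, adjusted p = 0.0145, and 0.0789 in the main test), against 6.83% of all genes. VCP and UFD1 encode parts of the complex that extracts ubiquitinated proteins, INSIG1 among them, from the endoplasmic reticulum for the proteasome. Neither passed labelled SK-N-AS (0.09 and 0.03), and their difference of the responses did not pass either (adjusted p = 0.639 and 0.564). The site proteases MBTPS1 and MBTPS2, which cleave SREBP2, had estimates of 0.03 and -0.06. Of 14 genes on the isoprenoid branches, 1 was higher, DHDDS, which makes dolichol precursors (log2 0.35, adjusted p = 0.0425). Of 18 genes of sterol transport, uptake and conversion, 16 were tested and 1 was higher, the lipoprotein receptor LRP8 (0.46, adjusted p = 0.0315). With the block PLTP, the phospholipid transfer protein, was higher too (0.34, adjusted p = 0.00163), and GRAMD1B, a sterol carrier between plasma membrane and endoplasmic reticulum, was lower (-0.44, adjusted p = 0.00219, and 0.28 in the main test).

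Labelled SK-N-AS, none of the genes of these lists was called in the main test, and with the block PLTP was higher (0.33, adjusted p = 0.0257, and 0.35 in the main test). In the mean of both responses, where 1.23% of all genes were called, PLTP (0.34, adjusted p = 0.0138) and LRP8 (0.31, adjusted p = 0.0459) were higher and OSBPL9, a lipid transfer protein, lower (-0.15, adjusted p = 0.0465). With the block GRAMD1B was lower in the mean as well (adjusted p = 0.0102), and among the SREBP processing genes UFD1, VCP and UBXN8 were higher (adjusted p = 0.00796, 0.0108 and 0.0294).

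Between the controls, 5 of the 13 SREBP processing genes were higher and 7 lower in those labelled SK-N-BE(2), and 1 of the 14 isoprenoid genes was higher and 6 lower. Of the 16 transport genes tested, 6 were higher and 5 lower. With 33.9% of all genes higher and 35.2% lower, such counts say little about these lists. ABCG1, an LXR target that exports cholesterol, had means of 102.0 and 0.107 CPM (log2 -9.87), so that it was nearly missing under the label in which both LXR genes were higher. VLDLR, a lipoprotein receptor, had means of 26.6 and 0.421 CPM, and SCARB1, the HDL receptor, 296.2 and 97.4 CPM. STAR, which carries cholesterol to steroid synthesis in adrenal cortex, was called lower under the label SK-N-BE(2) (log2 -6.12). It and the other 3 adrenal cortex markers summed to between 4.83 and 5.44 CPM in the libraries labelled SK-N-AS and to at most 0.304 CPM in the others.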

How the data were processed

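The deposited values were whole-number counts per gene, not normalized, in 1 table of 61552 genes and 12 libraries. Per the labels' protocols, libraries were stranded mRNA preparations from column-extracted RNA, sequenced on a NovaSeq instrument. Per the submitters' processing notes, the authors used FastQC, Trimmomatic 1.4, HISAT2 2.2.1 and featureCounts 2.0.5 with GRCh38. For the annotation, strand setting, multi-mapping reads and the unit counted, no statement is given in the sources used here, so counts of genes that share exons or have close copies are uncertain.

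From these counts, filterByExpr by group left 20304 genes, all 30 genes of the list among them. TMM scaling and the robust quasi-likelihood test of edgeR 4.0.16 (R 4.3.3) were applied to all 12 libraries together, each group with its own coefficient (common dispersion 0.0223 on 8 residual degrees of freedom). Tests were two-sided, Benjamini-Hochberg adjusted over all genes tested, and called at an adjusted p under 0.05. CPM are TMM-scaled. The script was tested on simulated data.

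Replicate numbers equal the batch label, so same-numbered control and ML210 libraries were treated as pairs. Their deviations from the group means correlated at 0.357, 0.068 and 0.121 labelled SK-N-AS and at 0.096, 0.12 and 0.169 labelled SK-N-BE(2). Pairs with unlike numbers correlated at -0.269 to 0.189 labelled SK-N-AS and at -0.1 to -0.007 labelled SK-N-BE(2). Labelled SK-N-AS, batches 2 and 3 were thus not set apart as pairs: control 2 with ML210 3 gave 0.189 and control 3 with ML210 2 gave 0.125. For ML210, values with batch as a block within each line label are given beside the main ones where a call named in the text changed. Between the controls of the labels, the block was instead the batch number shared by both labels. There the deviations of same-numbered libraries correlated at -0.082, -0.003 and -0.027. DESeq2 1.42.0, other scalings, no filter, other sets of libraries and leaving out single libraries were alternatives.

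The 30 genes and the further lists were chosen with earlier results of these data known. The naming rule accounted for all 30, gave values in every library for called genes and for related pairs, and added MYCN, GPX4 and the lists of pathway and marker genes. Values in every library of other genes, those called only with the block among them, and PTPRC were chosen after they were seen. Positions and exon lengths are from GENCODE 29 on GRCh38, promoters from RefSeq GRCh38.p14.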

Additional observations from a re-analysis of the deposited data

How the results depend on the processing

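The count of genes lower with ML210 labelled SK-N-BE(2), 3 in the main test, was 7 with no filter, 12 with the replicate block, 8 in DESeq2, 0 with only the groups compared and 0 without batches 2 and 3 labelled SK-N-AS. The blocked fit called 5 without batch 1, 2 without batch 2 and 12 without batch 3 of that label. Leaving out single libraries gave 0 to 8. For the mean response, 4 in the main test, the count was 7 with no filter, 10 with the replicate block, 8 in DESeq2 and 0 without batches 2 and 3 labelled SK-N-AS, 0 to 9 without single libraries, and 9, 2 and 12 in the blocked fit without batch 1, 2 or 3 labelled SK-N-BE(2). For the difference of the responses, 0 in the main test, it was 0 to 1 without single libraries and 2, INSIG1 and SQLE, in the blocked fit without batch 3. Among the controls the genes called higher rose from 8 to 16 with library totals and were 8 to 12 without single libraries, and those called lower numbered 13 in all such fits. The cause was not tested. The fit without batches 2 and 3 labelled SK-N-AS and the blocked fits without a batch were chosen after seeing the data. The mean and the difference need all 4 groups, so fits of only the groups compared were not run for them. For single genes called in the main tests, 489 alternative values kept direction and call, 60 kept the direction and lost the call, and none changed direction. Among the calls between controls, only PMVK and INSIG1 lost the call, under library totals. All other losses were of ML210 calls. Of the 12 fits without single libraries, these lost the call in 1 (SQLE labelled SK-N-BE(2)) to 10 (SQLE in the mean response). With 3 libraries a group, the main test left estimates as far from 0 as -0.46, for INSIG1, without a call, and the missed calls say nothing of absent change.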
